A study of Homo sapiens with 4 samples.

Results

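The 10 genes described here are cell surface and aldehyde dehydrogenase (ALDH) genes used to recognise stem and progenitor cells of the breast: CD24, CD44, PROM1, EPCAM, THY1 and PROCR at the surface, and ALDH1A1, ALDH1A3, ALDH3A1 and ALDH3B2 among the enzymes. They were taken by name, and their transcripts were found by identifier in GENCODE 29, so they are 10 of the 56865 genes with listed transcripts. The study measured poly(A) RNA by sequencing in MDA-MB-468, a triple-negative breast cancer cell line (spelled MDA-MD-468 in some labels), at passage 12. In 2 libraries the cells had been given DMSO, the solvent control, for a time the labels do not state, and in 2 they had been given 5 µM MS1943, a compound that degrades the histone methyltransferase EZH2, for 3 days. All 4 libraries come from 1 line, with no other allele or agent in the labels, which say that dishes were seeded in duplicate and not whether the cultures were otherwise separate. The p-values therefore measure only the spread between these libraries, which may be technical. Titles of the DMSO libraries carry 1 letter and those of the MS1943 libraries 3, and whether the latter pool several dishes is not stated. Replicate numbers follow deposit order.

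In breast tissue and breast cancer, cells with high CD44 and low CD24 at the surface, and cells with high aldehyde dehydrogenase activity, are widely used as populations enriched for stem-like or tumour-initiating cells. CD44 is a receptor for hyaluronan whose messenger RNA is spliced with or without a block of variable exons, and CD24 is a small glycoprotein held in the membrane by a lipid anchor. The ALDH enzymes oxidise aldehydes, and ALDH1A1 and ALDH1A3 make retinoic acid from retinal. Messenger RNA is what was measured here, not surface protein or enzyme activity, and in such bulk samples fewer cells with a transcript and less transcript per cell cannot be told apart.

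The libraries held between 47564377 and 71378893 estimated reads. Mitochondrial transcripts took 1.64% and 1.77% of the DMSO libraries and 3.50% and 3.09% of the MS1943 libraries, and the part of this in the results was not tested. Levels are given as TPM, a relative abundance corrected for transcript length, or as CPM, reads scaled to the size of the library with edgeR's TMM factors. TPM was used to compare genes with each other, except in the sums of cell type markers. Those sums add CPM, which is not corrected for transcript length. Fold changes are MS1943 over DMSO with their standard error (SE), from edgeR's quasi-likelihood test on reads summed per gene. P-values are adjusted by the Benjamini-Hochberg method over 19358 tested genes, and a gene passed at an adjusted p under 0.05. The median log2 fold change over all tested genes was -0.01. It was -0.12 when libraries were scaled by total reads alone, and the share of higher genes among those that passed fell from 50.5% to 39.8%. Limma on log2 TPM gave a median of -0.09 and a share of 39.1%.

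With MS1943, CD24 fell 5.85-fold and PROM1 fell 2.25-fold, whereas CD44 rose 2.00-fold and PROCR rose 5.50-fold. Among the enzymes ALDH1A3 fell 1.68-fold and ALDH3B2 fell 1.28-fold, and ALDH1A1 rose 1.11-fold in a call that several other settings did not keep. EPCAM, THY1 and ALDH3A1 did not pass. Thus 7 of the 10 genes passed, against a background of 59.3% of all tested genes, 3 of them higher (background 30%) and 4 lower (background 29.4%). These background shares also apply to each gene list below, except where another setting is named. CD24, CD44, PROM1 and PROCR passed with a change of at least 2-fold, 4 of the 10 against 15.9% of all tested genes, with CD44 at the 2-fold limit itself. Libraries of the 2 treatments did not overlap in CPM for 9 of the 10 genes, against 78.3% of all tested genes. THY1 reached the filter on low counts only through the MS1943 libraries.

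By TPM the order with DMSO was CD24, CD44, EPCAM, ALDH1A3, ALDH3B2, ALDH1A1, PROM1, PROCR, ALDH3A1 and THY1. Libraries of neighbours in this order overlapped for EPCAM and ALDH1A3 and for ALDH1A1 and PROM1. With MS1943 the order was CD44, EPCAM, CD24, ALDH1A3 and then as before, and no neighbours overlapped. These TPM are summed over all transcripts of a gene. With MS1943, short transcripts annotated as keeping an intron held 31.9% and 30% of EPCAM's TPM (EPCAM-206) and 20.1% and 23.7% of ALDH1A3's (ALDH1A3-205). Among main protein-coding transcripts, EPCAM-201 (209 and 221 TPM) and CD24-201 (209 and 203 TPM) overlapped. ALDH1A3-201 (102 and 95 TPM) lay below ALDH3B2-201 (136 and 123 TPM).

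**Figure D1:**
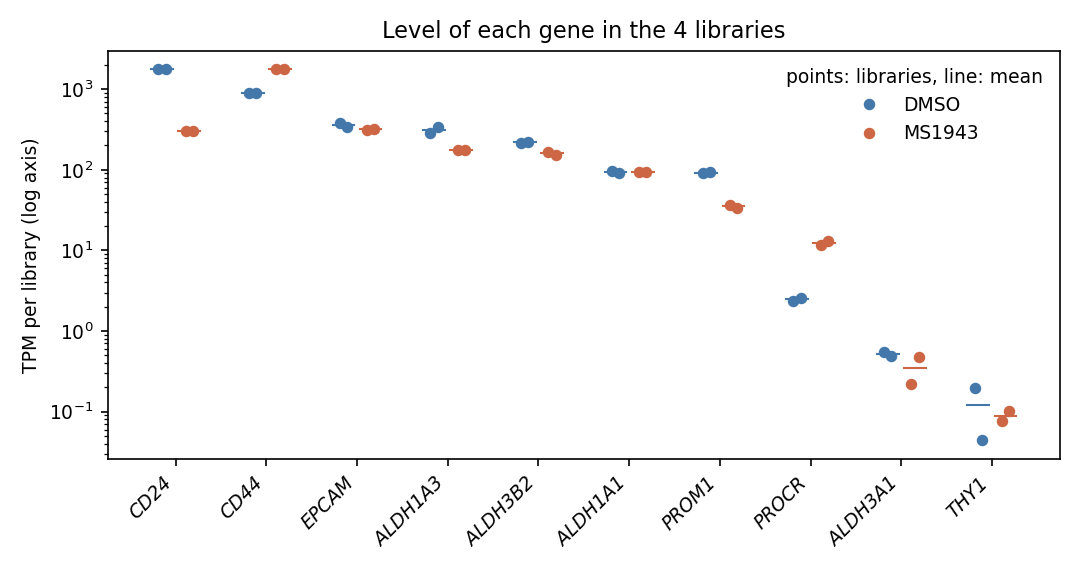
TPM of each of the 10 genes in each library on a log axis, with DMSO libraries in blue, MS1943 libraries in orange and a line at each group's mean. CD24 stood at 1757 and 1759 TPM with DMSO and 302 and 305 TPM with MS1943, CD44 moved the other way, and THY1 and ALDH3A1 lay under 1 TPM in all 4 libraries.

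CD24 (ENSG00000272398) lies on the minus strand of chromosome 6, from 106969831 to 106975627 in hg38. Its level was 1757 and 1759 TPM in the DMSO libraries and 302 and 305 TPM in the MS1943 libraries. Both MS1943 libraries were far below both DMSO libraries, and the replicates of each treatment lay close together. The log2 fold change was -2.55 ± 0.07 (SE, n = 2 per group), with an adjusted p of 3.08e-16 by edgeR. CD24 has processed copies elsewhere in the genome. The 3 copies listed by name outside chromosome Y (CD24P1, CD24P2 and CD24P5) were assigned 0 reads in every library. Any copy on chromosome Y was left out of this check.

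Among 8 listed CD24 transcripts, CD24-201 (2180 bases) held most reads, at 92.5% and 91.8% in the DMSO libraries and 85.8% and 84.2% in the MS1943 libraries. A shorter protein-coding transcript, CD24-202 (802 bases), held 0.880% and 2.20%, and then 5.08% and 4.57%. It was the 1 of 7 tested CD24 transcripts whose share of the gene passed in edgeR's test of transcript usage, with a log2 difference of 1.68 (adjusted p = 0.00172), against a background of 1.63% of 68355 tested transcripts. The choice to name CD24-202 was made with its values in view, and its usage call was not read under other settings. Its own level was 51.4 and 120 TPM with DMSO and 44.7 and 40.0 TPM with MS1943, so the higher share came with a level below both DMSO libraries.

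CD44 (ENSG00000026508) lies on the plus strand of chromosome 11, from 35138870 to 35232402 in hg38. The standard form of its messenger RNA joins a constant exon that ends at 35190065 directly to the next constant exon, which starts at 35214852. Variant forms place exons of the variable region, named v2 to v10 in the field, between them. The following junctions distinguish the 3 full-length forms that carried most reads, with the last 20 bases of the constant exon in lower case and the first 20 bases of the exon it joins in capitals. They are read 5′ to 3′ on the plus strand of hg38 from GENCODE 29 transcripts. The left side is chr11:35190046-35190065 in each, and the right side is chr11:35214852-35214871, chr11:35208105-35208124 and chr11:35198121-35198140 in turn.
CD44-201, standard form: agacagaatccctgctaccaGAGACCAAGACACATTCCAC
CD44-209, constant exon to v8: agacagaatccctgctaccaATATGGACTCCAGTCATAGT
CD44-206, constant exon to v3: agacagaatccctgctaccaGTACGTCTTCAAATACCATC

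CD44-209 carries v8, v9 and v10, and CD44-206 carries v3 to v10. The coding exons that mark the difference are v3, which CD44-206 has and CD44-209 lacks, and v8, v9 and v10, which both have and CD44-201 lacks. Reads on single exons or junctions were not counted, and the shares of CD44 forms below come from reads estimated per transcript. The exons are shown whole because the CD44 forms described below differ in them. They lie at chr11:35198121-35198246, chr11:35208105-35208206, chr11:35209965-35210054 and chr11:35211246-35211449.
CD44 exon v3: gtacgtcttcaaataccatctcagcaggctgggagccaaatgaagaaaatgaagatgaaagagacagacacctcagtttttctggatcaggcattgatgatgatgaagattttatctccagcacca
CD44 exon v8: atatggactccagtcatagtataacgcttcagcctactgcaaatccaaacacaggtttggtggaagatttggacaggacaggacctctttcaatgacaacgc
CD44 exon v9: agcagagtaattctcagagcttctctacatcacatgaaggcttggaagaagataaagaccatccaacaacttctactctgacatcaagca
CD44 exon v10: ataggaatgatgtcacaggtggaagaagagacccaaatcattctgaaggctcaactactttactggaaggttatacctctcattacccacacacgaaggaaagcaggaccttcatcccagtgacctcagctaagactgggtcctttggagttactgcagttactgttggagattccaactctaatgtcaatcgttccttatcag

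CD44 as a whole stood at 888 and 898 TPM with DMSO and at 1754 and 1763 TPM with MS1943. The MS1943 libraries were both above the DMSO libraries, with little spread within either treatment. On the log2 scale the change was 1.0 ± 0.06 (SE, n = 2 per group; edgeR adjusted p = 5.82e-11). The ratio of CD44 to CD24, both in TPM, was 0.505 and 0.511 with DMSO and 5.81 and 5.78 with MS1943, so that CD24 was the more abundant transcript in both DMSO libraries and CD44 in both MS1943 libraries. CD44-AS1, which overlaps CD44 exons on the other strand, was assigned at most 0.109% as many reads as CD44, and the kit does not mark strand.

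The forms of CD44 also shifted in their shares. Transcripts that hold sequence of the variable region took 53.9% and 54.6% of CD44 reads with DMSO and 66.9% and 67.0% with MS1943, or 54.2% ± 0.491 and 67.0% ± 0.0553 (SD, n = 2 each). The difference of 12.8 percentage points is larger than the spread between replicates, and an exact two-sided permutation test over the 4 libraries gave p = 0.33, the smallest p it can reach. The 38 listed transcripts comprise 26 with variable sequence, 7 of the standard kind and 5 that reach neither. The share of TPM, which corrects for transcript length, was 82.1% and 82.5% with DMSO and 87.8% and 87.9% with MS1943, so the difference shrank to 5.54 points. That share includes CD44-227, a transcript of 580 bases with 31.8% to 33.9% of CD44 TPM, which does not span the variable region. Among the 14 transcripts that do span it, those with v8 and v9 took 67.7% and 68.2% of TPM with DMSO. With MS1943 they took 78.4% and 78.5%. The standard form CD44-201 is 4589 bases long, and it carries a last exon of 3274 bases, longer than any other CD44 model in the deposited files. Reads from most of that exon can therefore be assigned to CD44-201 and not to the shorter models of the variant forms. The files do not hold the error of this assignment. Exons were read from GENCODE 29, in which 7 of the 38 transcripts have another length than in the deposited files. These 7 held 1.59% to 1.95% of CD44 reads, the 4 transcripts named next are not among them, and without them the difference was 13 points.

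By transcript, CD44-201 held 45.4% and 44.7% of reads with DMSO and 32.4% and 32.3% with MS1943. Its usage relative to the gene differed by -0.48 on the log2 scale and did not pass (edgeR adjusted p = 0.0867). CD44-209 held 34.1% and 33.6% with DMSO and 38.6% and 38.2% with MS1943, a usage difference of 0.18 that did not pass (edgeR adjusted p = 1). CD44-206, the form with v3 to v10, held 8.41% and 8.85% with DMSO and 15.6% and 16% with MS1943. It was the 1 of 32 tested CD44 transcripts whose usage passed, with a log2 difference of 0.87 (edgeR adjusted p = 4.78e-05). The background of transcripts with higher usage was 0.863%. Limma's test of usage gave 0.84 for CD44-206 with an adjusted p of 0.445 and so did not keep the call.

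In absolute level these 3 forms were all above their DMSO values with MS1943. CD44-206 stood at 54.8 and 57.9 TPM with DMSO and 186 and 191 TPM with MS1943. CD44-209 stood at 231 and 228 TPM and then 478 and 473 TPM, and CD44-201 at 143 and 142 TPM and then 187 and 187 TPM. The libraries did not overlap in any of the 3, and these transcript levels were not tested beyond usage. A short processed transcript of 580 bases, CD44-227, which holds variable sequence and codes for no protein, took 6.87% to 7.32% of reads and 31.8% to 33.9% of TPM, with no change of usage that passed (0.06, edgeR adjusted p = 1).

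Exon by exon, the 14 transcripts that span the variable region were summed by the exons they hold. Transcripts with v8 and v9 took 48.8% and 49.2% of these reads with DMSO and 62.9% and 63.0% with MS1943. Those with v10 took 48.0% and 48.2% and then 62.1% and 62.0%. Those with v4 to v7 took 9.72% and 10.3% and then 18.2% and 18.6%, and these 4 exons share the same spanning transcripts and are not independent values. Those with v3 were close to them at 9.78% and 10.4% and then 18.2% and 18.6%. The shares of v4 to v7 rest almost wholly on CD44-206, and no value is given for v2, whose spanning model has another length in the deposited files. MS1943 libraries were thus above DMSO libraries for every exon from v3 to v10.

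**Figure D2:**
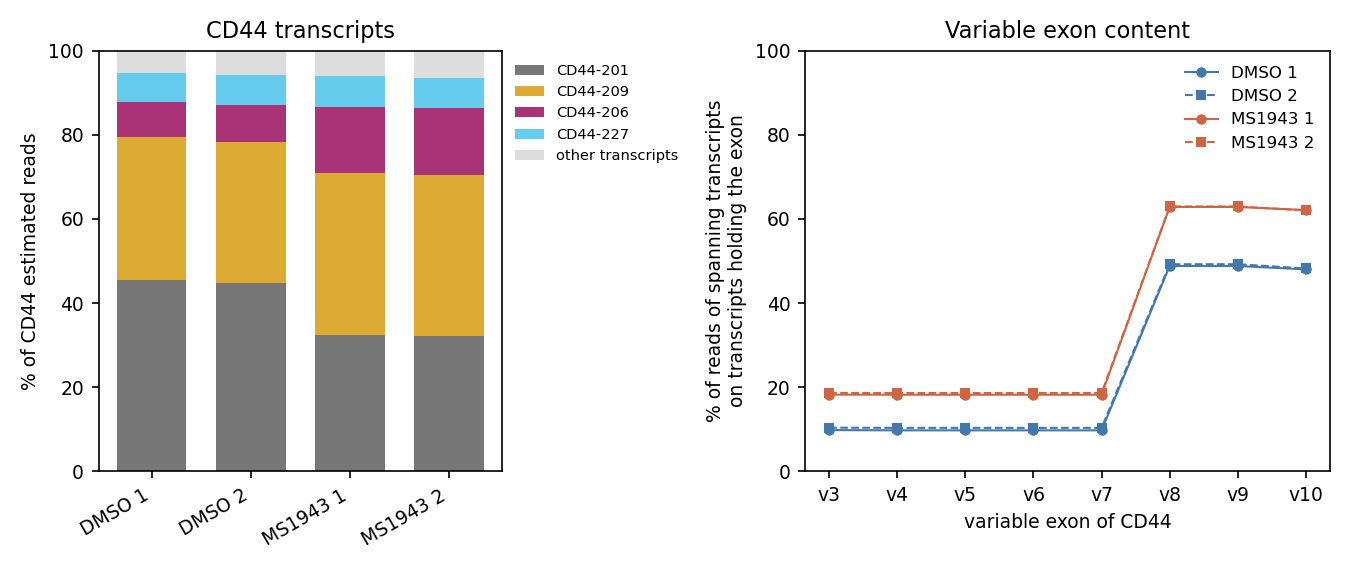
Left, percent of CD44 reads on 4 named transcripts and on all others in each library. Right, percent of the reads of transcripts spanning the variable region that lie on transcripts holding each exon from v3 to v10, by library; v8 to v10 stood near 48% to 49% with DMSO and 62% to 63% with MS1943.

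Epithelial splicing regulators and other factors known to act on CD44 variable exons were listed to be read beside this shift. Of 15 such genes, all tested, 4 were higher and 10 lower, against 30% higher and 29.4% lower of all tested genes. Their median log2 fold change was -0.31 against -0.01 for all tested genes. With scaling by total reads alone 1 was higher and 11 lower. In that setting 4619 of all 19358 tested genes were higher and 6973 lower. HNRNPA1, a nuclear RNA-binding protein that often represses exons, fell from 846 to 468 CPM (-0.85 ± 0.06 on the log2 scale; edgeR adjusted p = 4.78e-10), and its many processed copies make its reads less certain. The exon-binding factor SRSF1 fell by 0.66, HNRNPM by 0.60 and MBNL1 by 0.59 on the log2 scale. ESRP1, an epithelial regulator that favours variable exons, was at 152 CPM with DMSO and 198 CPM with MS1943 (0.37, edgeR adjusted p = 9.45e-06), and its paralog ESRP2 was at 46.0 and 39.7 CPM (-0.21, edgeR adjusted p = 0.00369). KHDRBS1 and TRA2B, on the same list, fell by 0.41 and 0.33 on the log2 scale. ESRP1, ESRP2, KHDRBS1 and TRA2B were named after their values were seen. The part of any of these genes in the CD44 forms was not tested.

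Genes around CD44 outside splicing moved in both directions. Of 16 listed for its ligand, shedding and link to the cytoskeleton, 13 were tested, 4 higher and 4 lower, with a median of -0.13. MSN (moesin, which ties CD44 to actin) rose from 239 to 533 CPM (1.16 ± 0.06). HAS3, a hyaluronan synthase, rose from 1.72 to 5.80 CPM (1.75 ± 0.15). ADAM17, a shedding protease, rose by 0.69, and HYAL2, a hyaluronidase, fell by 0.74 on the log2 scale. The edgeR adjusted p-values of these 4 genes were between 4.14e-12 and 6.45e-09.

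PROM1 (ENSG00000007062; chromosome 4, 15963076 to 16084378, minus strand) encodes CD133, a cholesterol-binding protein of membrane protrusions. It stood at 90.1 and 94.4 TPM with DMSO and 36.5 and 33.6 TPM with MS1943. Both MS1943 libraries were below both DMSO libraries by more than the spread within a treatment. This was a log2 fold change of -1.17 ± 0.06 (SE, n = 2 per group; edgeR adjusted p = 2.77e-12). None of its 11 tested transcripts passed in the usage test, and FGFBP2, which shares exon positions with PROM1, was assigned at most 0.601% as many reads. Its paralog PROM2 fell from 265 to 206 CPM (-0.36 ± 0.05; edgeR adjusted p = 1.16e-05).

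PROCR (ENSG00000101000; chromosome 20, 35172073 to 35216240, plus strand) encodes the endothelial protein C receptor, which also marks a stem cell population of the mouse mammary gland. Its reads numbered 121 and 147 with DMSO and 654 and 509 with MS1943, and its level was 2.36 and 2.59 TPM and then 11.7 and 13.2 TPM. All MS1943 values were above all DMSO values. Its log2 fold change was 2.46 ± 0.12 (SE, n = 2 per group; edgeR adjusted p = 2.80e-12). It has 1 listed transcript, so usage could not be tested.

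Around these genes, 9 were listed as the PROM1 paralog and the protein C and coagulation genes near PROCR. Of 7 tested, 5 were higher and 2 lower, with a median of 0.44. PROC, the protein C zymogen, rose from 1.57 to 5.71 CPM (1.87 ± 0.14, edgeR adjusted p = 1.37e-09). TFPI, an inhibitor of tissue factor, rose by 0.46 and F3, tissue factor itself, by 0.44 on the log2 scale. THBD, which presents thrombin to protein C, had 0 reads in all 4 libraries, which, at 3 reads, allows up to 0.0656 CPM in the shallowest library by counting error alone.

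EPCAM (ENSG00000119888; chromosome 2, 47345158 to 47387601, plus strand), an epithelial adhesion protein, stood at 378 and 334 TPM with DMSO and 314 and 321 TPM with MS1943. In CPM the values were 304 and 270 with DMSO and 280 and 290 with MS1943, so the treatments overlapped. The log2 fold change was -0.01 ± 0.06 (SE, n = 2 per group, edgeR adjusted p = 0.904). Its sign turned with DESeq2-type size factors within edgeR (0.000842) and not in DESeq2 itself (-0.0069). Its 5 tested transcripts gave no usage call. Of 10 genes listed around EPCAM, such as its partners and cleavage enzymes, 9 were tested, 5 higher and 2 lower, with a median of 0.19. ST14, the protease matriptase, fell from 359 to 244 CPM (-0.56 ± 0.06, edgeR adjusted p = 6.14e-08). FHL2, a LIM-domain partner of the EPCAM tail, rose from 97.6 to 161 CPM (0.72 ± 0.05, edgeR adjusted p = 7.79e-10).

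THY1 (ENSG00000154096; chromosome 11, 119417378 to 119424985, minus strand), a lipid-anchored protein of stromal and some stem cells, had 8 and 6 reads in the DMSO libraries and 13 and 12 in the MS1943 libraries. The log2 fold change was 1.16 ± 0.55 (SE, n = 2 per group; edgeR adjusted p = 0.0781) and did not pass. In TPM the order differed, at 0.195 and 0.0443 with DMSO and 0.0756 and 0.102 with MS1943, and the treatments overlapped.

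**Figure D3:**
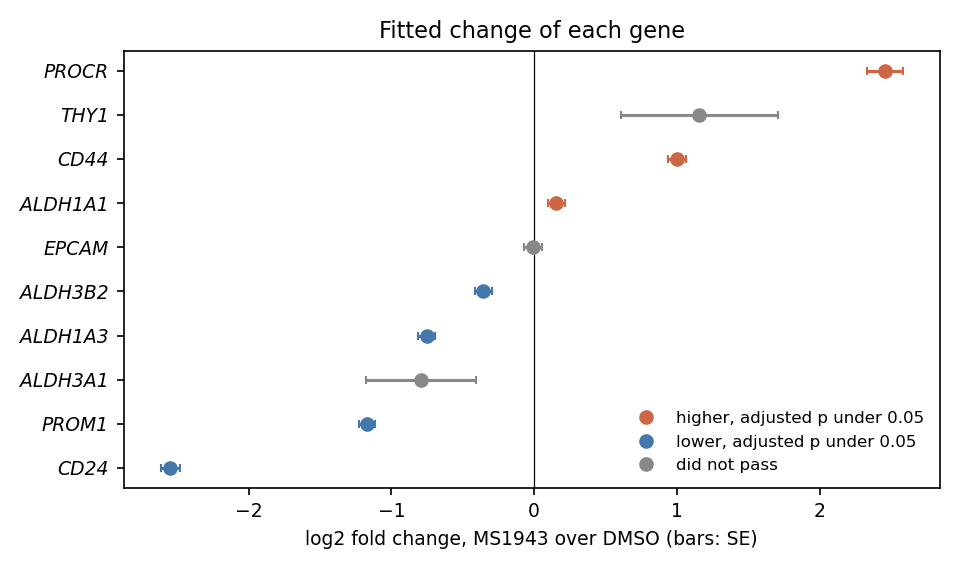
Log2 fold change of each of the 10 genes, MS1943 over DMSO, with bars for the SE and colour for the call at an adjusted p under 0.05. CD24 lies lowest at -2.55 and PROCR highest at 2.46, and the wide bars belong to THY1 and ALDH3A1, which have few reads.

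ALDH1A3 (ENSG00000184254; chromosome 15, 100877714 to 100916626, plus strand), the retinal dehydrogenase most often tied to ALDH activity in breast cancer cells, stood at 286 and 340 TPM with DMSO and 175 and 175 TPM with MS1943. In TPM the DMSO libraries differed from each other by more than the MS1943 libraries did. In CPM they did not, at 540 and 559 with DMSO and 339 and 314 with MS1943. The groups did not overlap in either unit. Its log2 fold change was -0.75 ± 0.06 (SE, n = 2 per group; edgeR adjusted p = 2.38e-09). By TPM summed over all its transcripts it ranked first of the 19 ALDH genes in all 4 libraries. It made up 24.4% and 27.7% of their summed TPM with DMSO and 20.1% and 20.5% with MS1943. That rank includes ALDH1A3-205, a 586-base transcript annotated as keeping an intron, with 17.6% to 23.7% of the gene's TPM and 2.16% to 3.34% of its reads. The main protein-coding transcript, ALDH1A3-201, stood at 102 and 95 TPM with MS1943, below ALDH3B2-201 at 136 and 123 TPM. With DMSO these transcripts overlapped, at 174 and 188 TPM against 179 and 186 TPM. None of the 7 tested ALDH1A3 transcripts passed in the usage test. ALDH1A3-AS1, on the other strand, was assigned 0.971% to 1.35% as many reads.

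ALDH1A1 (ENSG00000165092; chromosome 9, 72900662 to 73080442, minus strand), another retinal dehydrogenase, stood at 96.5 and 91.8 TPM with DMSO and 93.2 and 93.5 TPM with MS1943, so the treatments overlapped in TPM. In CPM they did not, with 114 and 103 against 119 and 123. The fitted log2 fold change was 0.16 ± 0.06 (SE, n = 2 per group; edgeR adjusted p = 0.0263). The call was lost with scaling by total reads (0.04, edgeR adjusted p = 0.458) and with an offset for transcript length (0.09, edgeR adjusted p = 0.226), and the direction turned in limma on log2 TPM (-0.01, adjusted p = 0.847). Leaving out DMSO replicate 2 (0.08), MS1943 replicate 1 (0.16) or MS1943 replicate 2 (0.13) also ended the call in edgeR.

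ALDH3B2 (ENSG00000132746; chromosome 11, 67662162 to 67681200, minus strand), a paralog of ALDH3B1, stood at 217 and 220 TPM with DMSO and 167 and 153 TPM with MS1943. Both MS1943 libraries were below both DMSO libraries. The log2 fold change was -0.36 ± 0.06 (SE, n = 2 per group; edgeR adjusted p = 4.14e-05). ALDH3A1 (ENSG00000108602; chromosome 17, 19737984 to 19748943, minus strand), a detoxifying enzyme, had 29 and 35 reads with DMSO and 15 and 14 with MS1943, with a log2 fold change of -0.79 ± 0.39 (SE, n = 2 per group; edgeR adjusted p = 0.0861) that did not pass. In TPM it was 0.543 and 0.487 against 0.221 and 0.478, under 1 in every library.

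Summed over the 19 ALDH genes, TPM was 1174 and 1226 with DMSO and 873 and 850 with MS1943. The 4 genes above made up 51.1% and 53.2% of the sum with DMSO and 49.9% and 49.6% with MS1943. Among the other 15 ALDH genes, all tested, 5 were higher and 7 lower, with a median log2 fold change of -0.07. ALDH7A1, an enzyme of lysine breakdown, fell from 179 to 65.0 CPM (-1.46 ± 0.06), and its share of ALDH TPM went from 19% ± 1.03 to 8.72% ± 0.195 (SD, n = 2 each). ALDH5A1, which clears a product of GABA, fell by 1.0 on the log2 scale. ALDH1L2, a mitochondrial folate enzyme, rose from 43.3 to 152 CPM (1.81 ± 0.06), and ALDH3A2, a fatty aldehyde dehydrogenase, rose from 67.2 to 132 CPM (0.97 ± 0.06). The edgeR adjusted p-values of these 4 genes were between 6.44e-15 and 1.75e-11.

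**Figure D4:**
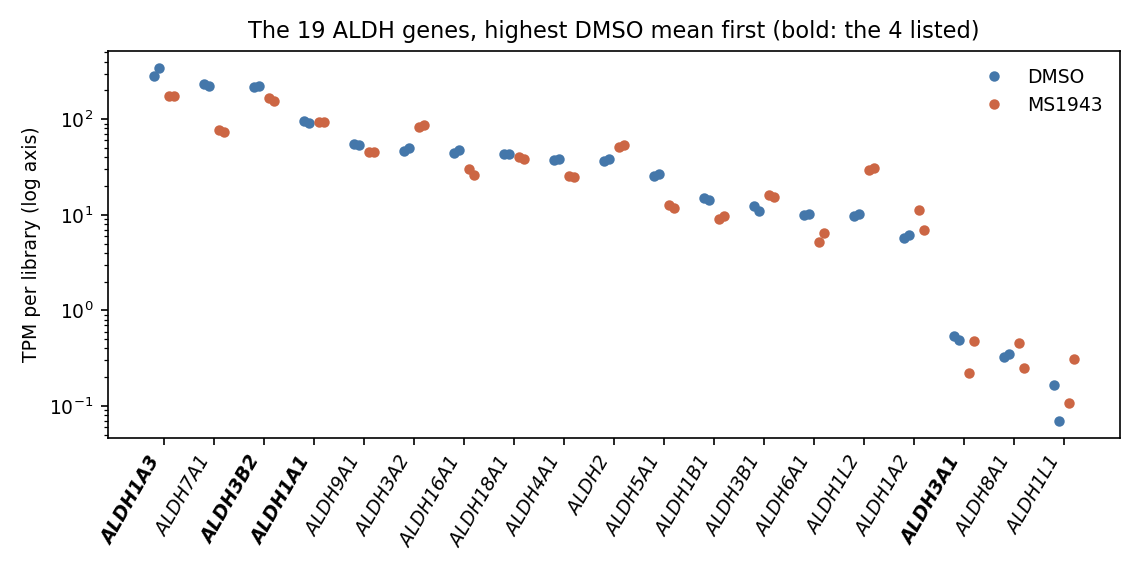
TPM of the 19 ALDH genes in each library on a log axis, ordered by their DMSO mean, with DMSO in blue, MS1943 in orange and the 4 described genes in bold. By TPM summed over all transcripts of a gene, ALDH1A3 is first in every library. ALDH7A1 drops from the second place with DMSO to the fifth with MS1943.

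Genes of retinoid synthesis, binding and response, which lie downstream of or beside ALDH1A1 and ALDH1A3, were read from a list of 22. Of 19 tested, 3 were higher and 13 lower, against 30% higher and 29.4% lower of all tested genes. The median was -0.33 against -0.01 for all tested genes. PLAAT4 (also called RARRES3), a retinoid-responsive gene, fell from 129 to 46.0 CPM (-1.49 ± 0.06). CRABP2, which carries retinoic acid to the nucleus, fell from 661 to 294 CPM (-1.17 ± 0.06). LRAT, which esterifies retinol for storage, rose from 1.90 to 10.8 CPM (2.51 ± 0.12). The edgeR adjusted p-values of these 3 genes were between 5.42e-14 and 7.28e-12. On the same list RARB fell by 1.26, CYP26B1 by 0.60 and RARRES1 by 0.15 on the log2 scale. DHRS3 (-0.09), NRIP1 (-0.01) and TGM2 (0.15) did not pass. RARB, CYP26B1, RARRES1, DHRS3, NRIP1 and TGM2 were named with their values in view.

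Markers of mammary basal and stem cells and of luminal progenitors were read beside the surface genes. Of all tested genes 30% were higher and 29.4% lower. Of 16 basal and stem markers 14 were tested, 4 higher and 7 lower, with a median of -0.27. The basal keratin genes KRT5 (1068 to 3888 CPM, 1.87 ± 0.07) and KRT17 (324 to 1025 CPM, 1.66 ± 0.07) rose. AXIN2 and LGR6, a target and a receptor of Wnt signalling, fell by 1.45 and 2.18 on the log2 scale. LGR5 had 0 reads in all 4 libraries. Of 12 luminal progenitor markers 10 were tested, 2 higher and 7 lower, with a median of -0.61. The receptor gene KIT fell from 63.7 to 16.1 CPM (-1.98 ± 0.07) and SLPI, a protease inhibitor, fell by 1.25, while KRT6B (68.4 to 848 CPM, 3.63 ± 0.09) and ITGA2, which encodes an integrin chain used to sort progenitors, rose (1.79 ± 0.07). KRT6B has close copies among the other keratin genes, so its reads are less certain. The edgeR adjusted p-values of these 8 genes were between 6.05e-17 and 7.27e-11. Other basal and stem markers did not all move with KRT5 and KRT17. KRT14 rose by 0.23 in the fit but went from 246 to 228 TPM, and SOX9 rose by 0.79. TP63 and ACTA2 did not pass. NGFR, with at most 45 reads, fell by 2.07, MME by 0.45 and ITGB1 by 0.29 on the log2 scale. These further markers were named with their values in view.

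**Figure D5:**
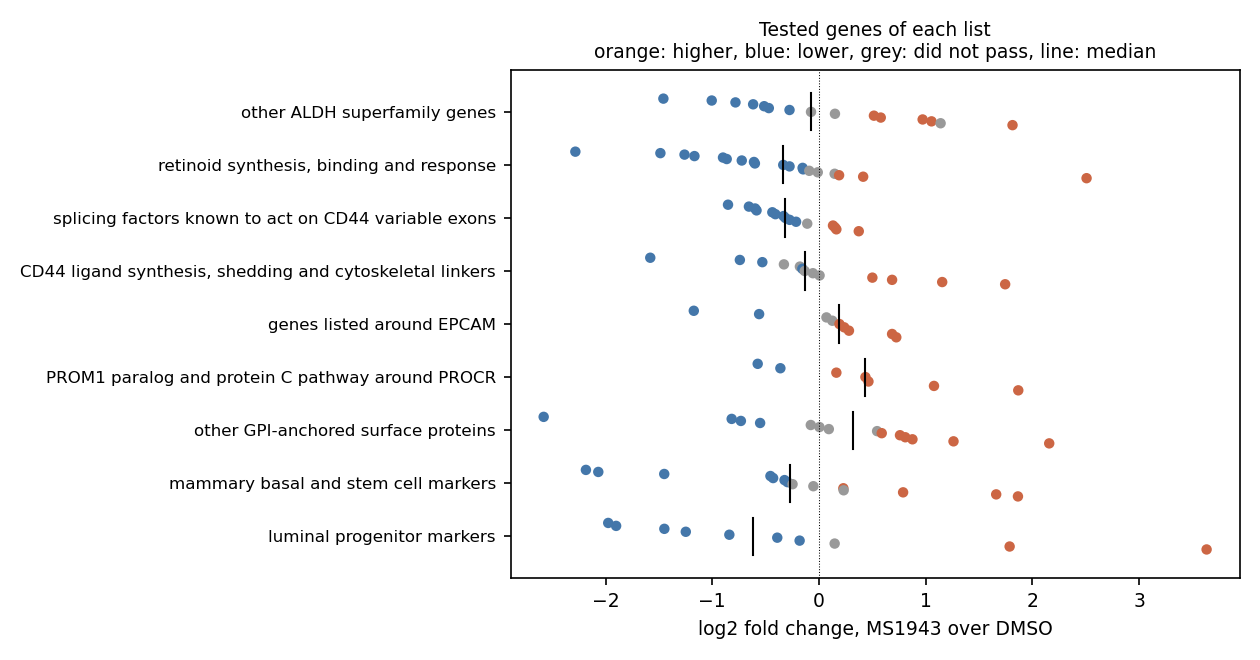
Log2 fold change of each tested gene of 9 lists, MS1943 over DMSO, with orange for higher, blue for lower, grey for genes that did not pass and a line at each median. Retinoid genes, CD44 splicing factors and luminal progenitor markers have most points left of 0, with medians of -0.33, -0.31 and -0.61.

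The labelled cell type was checked against marker lists. The 6 epithelial markers were present in every library, with a summed level of 9732 to 9763 CPM with DMSO and 10690 to 11160 CPM with MS1943. EGFR was the largest of them in CPM and rose, from 4289 and 4463 CPM with DMSO to 6754 and 6285 CPM with MS1943. CLDN4 was also higher and KRT18 did not pass. The other 3 were lower, KRT8 from 1788 to 1135 CPM, KRT19 from 2318 to 1918 CPM and CDH1 from 157 to 133 CPM. In mean TPM, EGFR went from 753 to 1048 and CLDN4 from 222 to 245. KRT19 went from 2933 to 2212 TPM, KRT8 from 1669 to 968, KRT18 from 908 to 897 and CDH1 from 53.3 to 41.6. A sum in TPM would therefore be lower with MS1943, unlike the sum in CPM. Leukocyte markers summed to 1.21 to 1.43 CPM and then 29.9 to 32.3 CPM. That sum was nearly all CD68, at 1.08 and 0.826 CPM with DMSO and 32.0 and 29.7 CPM with MS1943, while PTPRC, the defining leukocyte gene, stayed at or under 0.151 CPM. Fibroblast markers summed to 24.4 to 24.8 CPM and then 29 to 32.8 CPM, with COL1A1 leading and DCN and COL3A1 under 0.1 CPM in every library. Endothelial markers summed to 6.09 to 6.26 CPM and then 2.63 to 2.84 CPM, while PROCR, which endothelial cells also express, was higher. The part of these markers in the results was not tested.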

How the data were processed

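The members and gene lists were chosen with earlier results of these data known. The authors ran Salmon 0.9.1, R 3.4.3 and DESeq2 on hg38, per the submitters' processing notes, with an annotation release not given in the sources used here. Deposited estimated counts are Salmon's reads per transcript, and the deposited TPM are its length-corrected abundances, per the file headers. The kit (TruSeq v2, per the labels' protocols) does not mark strand. Of 197653 transcripts, 193505 matched GENCODE 29 without version, and the other 4148 (0.482% to 0.496% of reads) were left out. Reads were summed per gene, rounded, filtered with filterByExpr (minimum count 10) and tested with edgeR 4.0.16 (TMM, quasi-likelihood) in R 4.3.3; the SE is the fold change divided by the square root of F. Transcript usage was tested with diffSpliceDGE. Alternatives used DESeq2 1.42.0, limma 3.58.1 (log2 of TPM plus 0.5), other scalings, length offsets from the deposited effective lengths, no filter, and each library left out. Scripts were tested on simulated data. Named are the 10 genes, CD44 transcripts with at least 5% of reads in any library, and up to 4 genes per list with the smallest adjusted p that passed; some genes are not reported here. Replicates of a group differed by more than sampling noise, with a chi-square over its degrees of freedom of 6.97 (DMSO) and 6.27 (MS1943).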

Additional observations from a re-analysis of the deposited data

How the results depend on the processing

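CD24, CD44, PROM1, PROCR, ALDH1A3 and ALDH3B2 kept direction and call under all 10 alternatives, with log2 fold changes of -2.66 to -2.43, 0.89 to 1.08, -1.38 to -1.11, 2.12 to 2.53, -0.86 to -0.71 and -0.47 to -0.30. ALDH3A1 stayed without a call (-1.01 to -0.27). The ALDH1A1 call was lost with total-read scaling (0.0441), without the filter on low counts (0.121) and with length offsets (0.0923), turned in limma on log2 TPM (-0.0122), and ran from 0.0834 to 0.222 with a library left out. EPCAM turned with DESeq2-type size factors within edgeR (0.000842) and not in DESeq2 itself (-0.0069). With a library left out EPCAM ran from -0.0997 to 0.0744, turning without DMSO replicate 1 and without MS1943 replicate 1 (0.00296). It never had a call. THY1 turned in limma on log2 TPM (-0.0639), with no call. The causes were not tested. For the CD44 share of variable forms the difference was 5.54 points by TPM, 13.9 among spanning transcripts, 13.7 among protein-coding ones and 12.4 to 13.1 with a library left out. CD44-206 usage lost its call in limma (0.842). Usage calls over all transcripts numbered 1116, against 776 with transcripts of at least 1 read, 2506 with limma and 620 without DMSO replicate 1. Called genes ranged from 9395 to 11592. No paired analysis was possible because the labels give no replicate numbers. In an alternative chosen after seeing the data, leaving out CD44 models whose length differs from GENCODE 29, the difference was 13 points. THY1 and ALDH3A1 have few reads and wide SEs.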

Other observations

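Besides CD24 and THY1, 14 other genes for lipid-anchored (GPI-anchored) surface proteins were read. All were tested, 6 higher and 4 lower, with a median log2 fold change of 0.32 that was -0.05 in limma on log2 TPM. CD55, which restrains complement, rose from 15 to 66.9 CPM (2.16 ± 0.06, n = 2 per group). LYPD3 rose from 73.6 to 176 CPM (1.26 ± 0.06), PLAUR, the urokinase receptor gene, from 30.5 to 56.0 CPM (0.88 ± 0.06), and CD109 from 181 to 317 CPM (0.81 ± 0.06). The edgeR adjusted p-values of these 4 genes were between 1.59e-15 and 2.72e-10. Of the 4 that fell, as CD24 did, CD59, which also restrains complement, went from 875 to 597 CPM (-0.55 ± 0.06, edgeR adjusted p = 2.10e-07), and NT5E, an ectonucleotidase gene, from 52.2 to 29.7 CPM (-0.82 ± 0.06, edgeR adjusted p = 1.05e-09). CD59 and NT5E were named with their values in view.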
